A study of Mus musculus with 18 samples.

Results

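The genes of the C1q/TNF-related proteins were followed through the cartilage of the mouse anterior cruciate ligament (ACL) rupture model of post-traumatic osteoarthritis. Of the 49184 genes summed from the deposited transcripts, 7 are described, namely C1qtnf1, C1qtnf2, C1qtnf3, C1qtnf5, C1qtnf6, C1qtnf7 and C1qtnf12. They were chosen by name, by a choice made with their high levels at day 7 after injury already known, so the values of the day 7 injured knee against its controls are given as a description and carry no test. All 7 passed the filter on low counts.

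Cartilage RNA of wild-type C57bl6 mice was sequenced as total RNA without ribosomal RNA in 18 libraries. The male mice were 12 weeks old, and a single 12 N load ruptured the ACL of the right knee, with the left knee kept as the contralateral control. There were 3 libraries of injured and 3 of contralateral knees at day 1, 3 of injured and 3 of contralateral knees at day 7, and 6 libraries of naïve mice without injury, which the labels place at day 7. Each library is a pool. The study's methods give 2 mice per pool at day 1, 4 at day 7 and 2 knees per naïve pool, with left and right knees of the naïve mice pooled apart, whereas the series text gives 4 mice for every sample. The methods and the labels name femoral condyle cartilage and the series text names medial knee caps. The study's scheme gives 6 naïve mice in all, so the 6 naïve libraries share mice, and the contralateral knees are those of the injured mice. The labels do not say which pools share mice. The SDs and p-values here treat all libraries as independent, unlike the authors' test, which allowed for shared pools.

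Total estimated counts per library ran from 16074762 to 41794005, with a median of 25465706. One library stood apart. In day 7 contralateral replicate 1 a top 10 of genes held 42.5% of all counts (16.6% to 29.8% in the others), and its TMM scaling factor was 0.70 against 0.83 to 1.16. The chondrocyte genes that the label calls for were present in every library. The summed level of 12 chondrocyte markers, led by Col2a1, ran from 3970 to 15184 CPM (counts for each 1000000 of the library, scaled by TMM). The same pools also held muscle, erythroid, macrophage and adipocyte RNA, described after the gene values, so the RNA was not of chondrocytes alone.

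C1q/TNF-related proteins (CTRPs) are secreted relatives of adiponectin. Most have a signal peptide, a collagen-like stretch and a globular C1q domain at the C-terminal end, and the chains assemble into trimers and larger multimers. C1qtnf3, also called cartducin, was described in developing cartilage, where it acts on chondrogenic precursor cells. C1qtnf6 encodes a protein known as a regulator of complement, and C1qtnf12 encodes adipolin, an adipokine that improves the response to insulin.

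C1qtnf3 (ENSMUSG00000058914) lies on the plus strand at chr15:10952332-10980150 of GRCm38 and has 2 annotated protein-coding transcripts of 6 exons each. They start close together, at bases 10952332 and 10952357, but leave the first exon at different bases. Exon 1 has 206 bases in C1qtnf3-201 and 400 in C1qtnf3-202, which reads on past the splice site of C1qtnf3-201. The stretch that only C1qtnf3-202 keeps is shown because it is what tells the coding sequences apart. It has 219 bases at chr15:10952538-10952756, or 73 whole codons, which takes the coding sequence from 738 to 957 bases without the stop. The capitals mark the 2 bases with which the first intron of C1qtnf3-201 begins.
C1qtnf3-202 extra coding stretch: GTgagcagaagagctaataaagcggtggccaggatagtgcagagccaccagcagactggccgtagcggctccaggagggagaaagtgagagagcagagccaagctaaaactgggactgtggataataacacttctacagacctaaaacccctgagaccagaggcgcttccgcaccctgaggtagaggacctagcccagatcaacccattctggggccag

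The promoters of 5 of the 7 genes were found in the RefSeq table of GRCm38.p6, each as 250 bases before to 50 bases after the start that RefSeq gives the gene. The promoters of the 3 genes with the highest fold against naïve at day 7 are shown. RefSeq's start need not be that of GENCODE, and the C1qtnf6 window lies wholly inside the GENCODE gene given below, downstream of its start. The TATA box was searched as TATAAA, the CCAAT box as its own letters, the GC box as GGGCGG, the AP-1 site as TGANTCA and the RUNX site as TGTGGT, each on both strands, and the capitals mark every match.
C1qtnf3 promoter, chr15:10952082-10952381, plus strand: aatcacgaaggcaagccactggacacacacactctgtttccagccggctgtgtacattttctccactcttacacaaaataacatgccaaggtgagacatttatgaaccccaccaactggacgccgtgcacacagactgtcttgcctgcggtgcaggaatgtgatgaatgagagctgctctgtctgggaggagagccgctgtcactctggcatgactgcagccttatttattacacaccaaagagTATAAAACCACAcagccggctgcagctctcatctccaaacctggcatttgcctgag
C1qtnf2 promoter, chr11:43474056-43474355, plus strand: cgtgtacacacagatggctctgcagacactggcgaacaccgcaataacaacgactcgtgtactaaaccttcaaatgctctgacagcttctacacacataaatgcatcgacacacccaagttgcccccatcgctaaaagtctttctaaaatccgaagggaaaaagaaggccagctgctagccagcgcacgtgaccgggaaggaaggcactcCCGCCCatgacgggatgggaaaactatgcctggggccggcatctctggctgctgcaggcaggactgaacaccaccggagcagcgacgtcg
C1qtnf6 promoter, chr15:78529602-78529901, minus strand: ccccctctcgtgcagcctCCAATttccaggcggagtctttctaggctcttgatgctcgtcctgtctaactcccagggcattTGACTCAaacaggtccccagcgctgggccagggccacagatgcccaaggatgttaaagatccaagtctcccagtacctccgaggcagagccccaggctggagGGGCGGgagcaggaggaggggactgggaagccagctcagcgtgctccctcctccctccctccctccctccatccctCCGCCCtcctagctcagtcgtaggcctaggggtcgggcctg
These windows share few of the letters searched. The C1qtnf3 window held a TATA box at position −6, counted from RefSeq's start at 0, and directly after it a RUNX match on the other strand, so that its capitals are a run of 2 matches. The C1qtnf2 window held a single GC box, at −40. The C1qtnf6 window held a CCAAT box at −232, an AP-1 match at −169 and GC boxes at −67 and 9. Its share of G and C was 63.7%, against 55.0% for C1qtnf2 and 50.7% for C1qtnf3. Of all 32851 promoters in the table, 13.6% held the TATA box letters, 37.4% the CCAAT box, 35.7% the GC box, 7.81% the AP-1 site and 16.8% the RUNX site. A match is a description of the letters and was not tested as a binding site.

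C1qtnf3 had the highest level of the 7 genes in the day 7 injured knee and was among the low ones everywhere else. In the 3 day 7 injured libraries it stood at 596, 674 and 892 CPM (721 ± 153, SD, n = 3). In the 6 naïve libraries it ran from 5.37 to 12.3 CPM with a median of 8.70 (8.80 ± 2.93, SD, n = 6). Every day 7 injured library was far above every other library, and the 15 other libraries covered a single low range. The day 7 contralateral knees held 4.68, 7.44 and 8.08 CPM. The day 1 injured knees held 7.59, 5.09 and 9.95 CPM, and the day 1 contralateral knees 8.23, 7.58 and 5.37 CPM. These groups lay over each other. As the RNA is of whole pools, more cells that express a gene and more RNA of it per cell cannot be told apart.

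The C1qtnf3 level in the day 7 injured knee was 82.4-fold that of the naïve knee, a log2 difference of 6.37 ± 0.26 (SE). Against the day 7 contralateral knee it was 105-fold higher, a log2 difference of 6.72 ± 0.37 (SE), and 6.56 without the contralateral library that stood apart. By log2 fold change, highest first, it ranked 3 of 21129 genes against naïve and 7 of 21262 against contralateral.

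**Figure D1:**
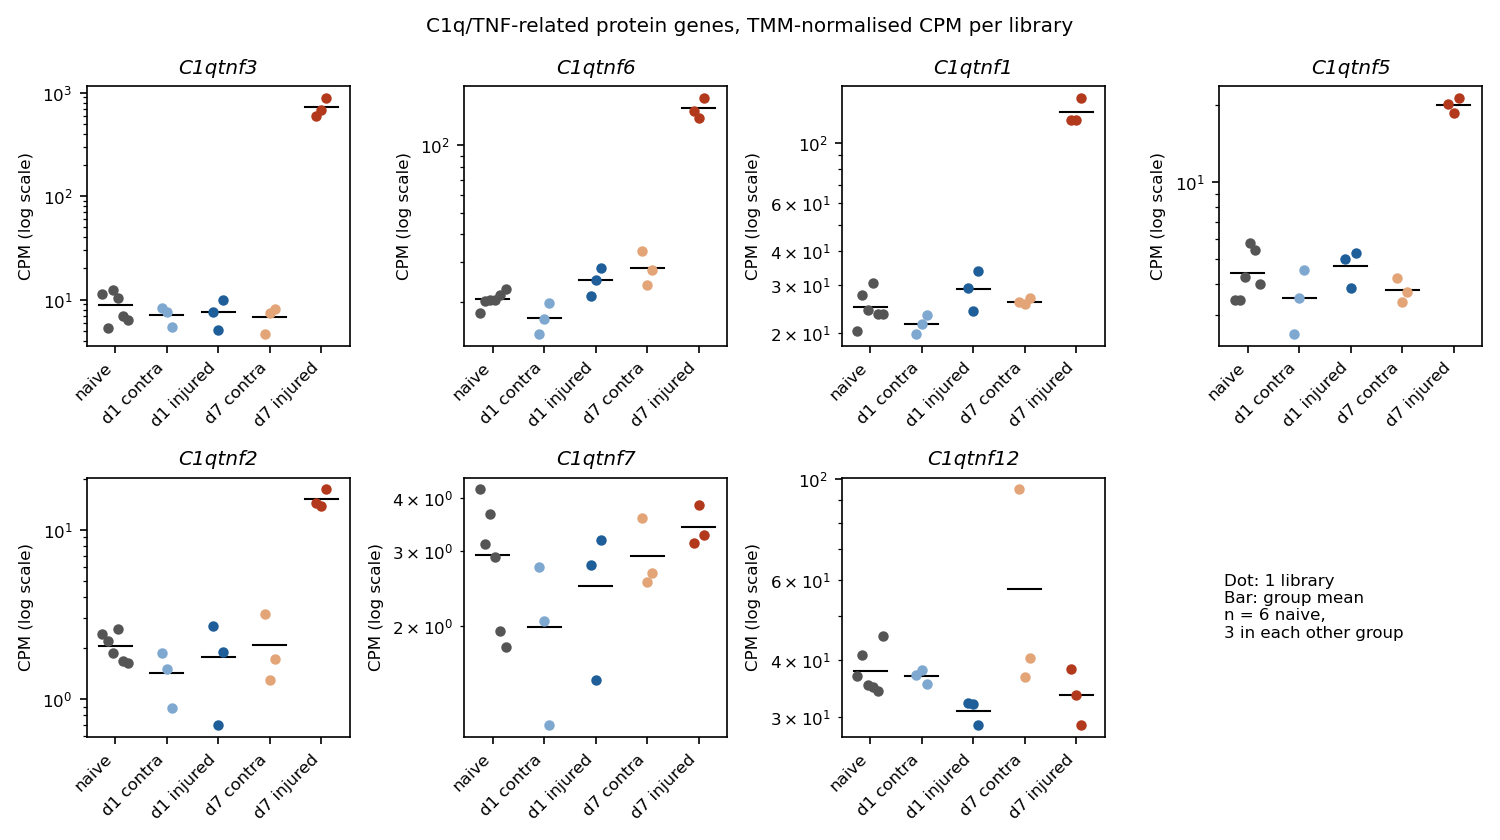
CPM (TMM-scaled, log axis) of each C1q/TNF-related protein gene in all 18 libraries, by group. Each dot is a library and each bar a group mean (n = 6 naïve, 3 in every other group). C1qtnf3, C1qtnf6, C1qtnf1, C1qtnf5 and C1qtnf2 sit apart and high in the day 7 injured group, with C1qtnf3 at 596 to 892 CPM against 4.68 to 12.3 CPM in the other libraries, while the day 7 injured values of C1qtnf7 and C1qtnf12 overlap those of both day 7 controls.

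Both C1qtnf3 transcripts carried the day 7 level. In the day 7 injured libraries C1qtnf3-201 held between 8245 and 14789 estimated counts and C1qtnf3-202, the form with the stretch shown above, between 2397 and 4497. C1qtnf3-202 made up 21.7% to 23.3% of the counts of the gene (22.5% ± 0.816, SD, n = 3). In the naïve libraries its share was 19.0% to 28.2% (24.0% ± 3.28, SD, n = 6), a range that includes the day 7 injured values. The higher level thus came with a division between the 2 forms that overlapped that of naïve cartilage.

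The share was uneven in both contralateral groups and in the day 1 injured knees, whose libraries held 60 to 240 counts of the gene. The naïve libraries held about as few, 81 to 356, and why the share was steadier there was not tested. The share was 13.2%, 15.3% and 47.9% in the day 1 contralateral libraries, and 9.21%, 33.4% and 39.6% in the day 1 injured ones. In day 7 contralateral replicate 1 all 60 counts of the gene were given to C1qtnf3-201, while the other day 7 contralateral libraries gave C1qtnf3-201 82.0% and 54.7%. Summed over the libraries of a group, the share was 23.8% in naïve, 24.7% in day 1 contralateral, 29.6% in day 1 injured, 29.7% in day 7 contralateral and 22.6% in day 7 injured knees. The last exon is annotated as 1635 bases in C1qtnf3-201 and 1191 in C1qtnf3-202, so reads from the end of the gene could also have been assigned by these annotated ends, and the share is an estimate of the pseudo-alignment and not a count of reads over the splice site.

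**Figure D2:**
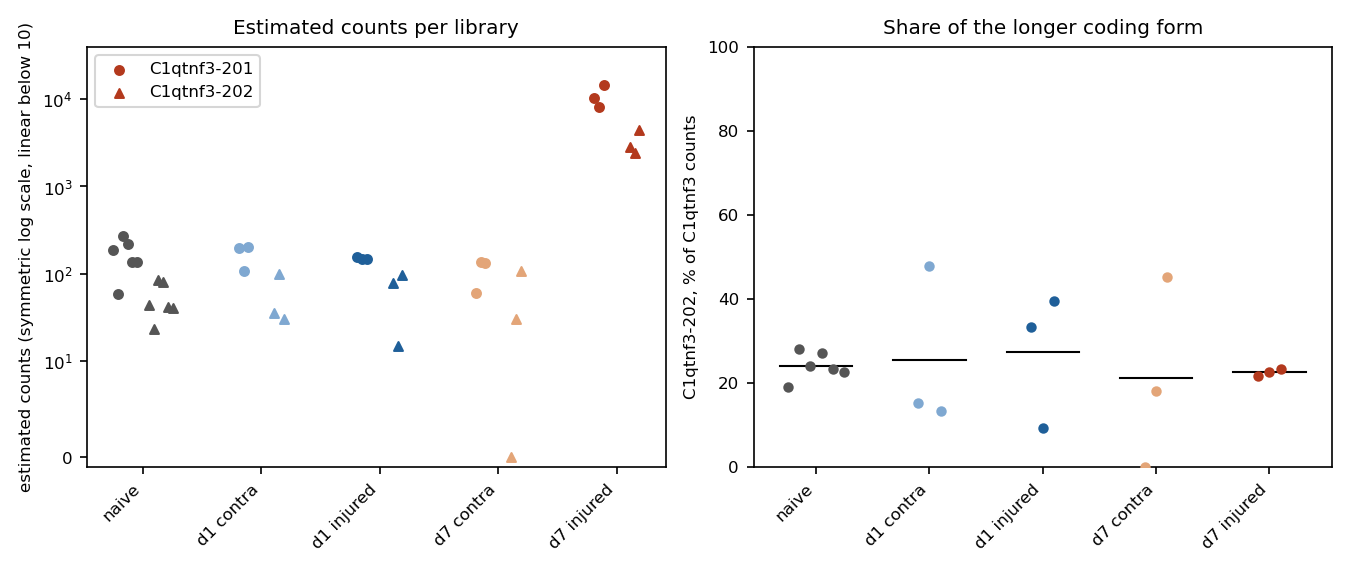
Left, estimated counts of C1qtnf3-201 (circles) and C1qtnf3-202 (triangles) per library on a symmetric log axis that is linear below 10. Right, C1qtnf3-202 as a percentage of the C1qtnf3 counts, with a dot per library and a bar for the group mean. The day 7 injured libraries lie between 21.7% and 23.3%, inside the naïve range of 19.0% to 28.2%. The scatter is wide in both contralateral groups and in the day 1 injured group.

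C1qtnf3 stands between Rai14, 237707 bases away on the side of lower coordinates, and Amacr, which begins 1605 bases beyond its end. Both neighbours were higher in the day 7 injured knee, by far less than C1qtnf3. Amacr, a racemase of branched-chain fatty acid breakdown, held 6.18, 8.36 and 8.42 CPM in the day 7 injured libraries and 2.96 to 3.86 CPM in the naïve ones. The difference was 1.16 ± 0.15 (log2, SE; edgeR FDR 3.4e-05), and 1.06 ± 0.20 (FDR 0.000983) against the day 7 contralateral knee. Rai14 rose by 0.86 ± 0.16 (log2, SE; edgeR FDR 0.000702) against naïve and by 0.76 ± 0.21 (FDR 0.0151) against contralateral, where the call was lost in 3 of 12 alternatives, among them without day 7 contralateral replicate 1 and without day 7 injured replicate 3.

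Of the 21 genes that overlap or neighbour a member, 16 passed the filter. Against naïve 3 of the 16 rose, namely Amacr, Rai14 and Mcam, and none fell. Against contralateral 4 rose, the same 3 and Cc2d2a, with none lower, beside 10.4% of all genes called higher and 6.11% called lower against naïve, and 9.33% and 3.23% against contralateral. The call of Cc2d2a was lost in 8 of the 12 alternatives, among them without day 7 contralateral replicate 1 (edgeR FDR 0.0767 against 0.0265 with it). Mcam, a cell adhesion molecule of vessel walls that lies 25281 bases from C1qtnf5, rose from 22.2 to 33.4 CPM in naïve libraries to 60.6, 62.3 and 65.7 CPM in day 7 injured ones (log2 1.19 ± 0.16, SE; edgeR FDR 5.4e-05). The neighbours of C1qtnf2, Slu7 (log2 0.00 ± 0.08, SE) and Ccnjl (−0.44 ± 0.20), did not pass the test against naïve, nor did Il2rb beside C1qtnf6 (−0.23 ± 0.21).

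C1qtnf6 and C1qtnf1 were the next most abundant of the genes that stood high at day 7. C1qtnf6, on the minus strand at chr15:78523346-78531416, held 143, 133 and 163 CPM in the day 7 injured libraries. In the naïve libraries it ran from 17.8 to 22.8 CPM with a median of 20.4. The 3 injured values were all several times the highest naïve value, and the fitted difference was 7.20-fold, or 2.85 ± 0.11 (log2, SE). Against the day 7 contralateral libraries, at 33.8, 23.8 and 27.8 CPM, the log2 difference was 2.36 ± 0.15. The day 1 contralateral libraries held 14.4, 16.7 and 19.7 CPM and the day 1 injured ones 21.4, 25.0 and 28.5 CPM.

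C1qtnf1 (chr11:118428203-118449963, plus strand), whose protein is a secreted adiponectin relative made in adipose and vascular tissue, held 121, 121 and 146 CPM in the day 7 injured libraries. The naïve libraries ran from 20.3 to 30.6 CPM with a median of 23.9, and the day 7 contralateral ones were close together at 26.0, 25.5 and 26.8 CPM. The injured group stood clear of both. The log2 difference was 2.39 ± 0.12 (SE), or 5.25-fold, against naïve and 2.31 ± 0.15 against contralateral. At day 1 the injured libraries held 29.3, 24.1 and 33.9 CPM and the contralateral ones 19.9, 21.6 and 23.3 CPM.

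C1qtnf2 and C1qtnf5 had the same pattern at a lower level. C1qtnf2 (chr11:43474276-43491525, plus strand), a close relative of C1qtnf7 within the family, held 14.5, 13.9 and 17.3 CPM in the day 7 injured libraries. It ran from 1.64 to 2.59 CPM with a median of 2.03 in naïve libraries and was 3.20, 1.29 and 1.72 CPM in day 7 contralateral ones. The injured libraries again lay clear of all controls, at 7.50-fold the naïve level (log2 2.91 ± 0.28, SE). Against contralateral the log2 difference was 2.93 ± 0.39, and 3.35 without day 7 contralateral replicate 1. At day 1 the injured values of 2.71, 0.699 and 1.91 CPM spanned the contralateral ones of 1.86, 1.51 and 0.888 CPM.

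C1qtnf5 (chr9:44107245-44109187, plus strand), a gene mutated in a late-onset degeneration of the retina, held 20.3, 18.7 and 21.4 CPM in the day 7 injured libraries. The naïve libraries ran from 3.45 to 5.78 CPM with a median of 4.12, and the day 7 contralateral ones stood at 4.21, 3.39 and 3.72 CPM. The injured libraries were clear of both, with a log2 difference of 2.21 ± 0.18 (SE), or 4.61-fold, against naïve and 2.42 ± 0.23 against contralateral. At day 1 the injured libraries held 5.01, 3.85 and 5.26 CPM, against 2.54, 3.50 and 4.51 CPM in the contralateral ones.

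The C1qtnf5 values need a caution. All 1589 of its exon bases, 100% of them, also lie in annotated exons of Mfrp, which runs on the same strand, so how its reads divide between them is set by the pseudo-alignment. Mfrp, a membrane protein of the retinal pigment epithelium, held 1.81 ± 0.192 CPM (SD, n = 3) in the day 7 injured libraries and 2.48 ± 0.281 CPM (SD, n = 6) in the naïve ones. Its log2 difference of −0.45 ± 0.16 (SE; edgeR FDR 0.0420) fell short of the 1.5-fold limit, and against contralateral it was at −0.27 ± 0.18 (FDR 0.343), so Mfrp was called in neither comparison. By TPM Mfrp held 0.365, 0.911 and 0.355 in the day 7 injured libraries (mean 0.544). The day 7 contralateral ones held 0.298, 0.551 and 0.559 (mean 0.469). The medians, 0.365 and 0.551, lay the other way round from the means.

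C1qtnf7 and C1qtnf12 did not share the day 7 level. C1qtnf7 (chr5:43515538-43618803, plus strand) was low throughout, at 3.13, 3.86 and 3.28 CPM in the day 7 injured libraries and 1.78 to 4.20 CPM with a median of 3.01 in naïve ones. The groups overlapped, and the log2 differences were 0.24 ± 0.31 (SE) against naïve and 0.24 ± 0.35 against contralateral. By TPM the direction turned, with means of 0.687 in day 7 injured, 0.793 in naïve and 0.699 in day 7 contralateral libraries. Its day 7 contralateral libraries held 3.58, 2.54 and 2.67 CPM, its day 1 injured ones 2.78, 1.49 and 3.19 CPM, and its day 1 contralateral ones 2.76, 2.06 and 1.17 CPM.

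C1qtnf12 (chr4:155962318-155966629, plus strand) was the most abundant of the 7 in all groups but the day 7 injured one. It held 38.1, 33.4 and 28.8 CPM in the day 7 injured libraries and 34.2 to 45.1 CPM with a median of 36.0 in the naïve ones, a log2 difference of −0.16 ± 0.10 (SE). The day 7 contralateral libraries were at 94.8, 36.7 and 40.3 CPM, where the first value belongs to the library that stood apart. On the TPM scale, which divides by transcript length and by the library total, that same library held 19.8 of C1qtnf12, the lowest of its group, whose highest was 21.9. By TPM the day 7 injured libraries, at 11.8 to 13.2, lay wholly below the naïve ones at 15.8 to 21.0 and the day 7 contralateral ones, so the overlap of C1qtnf12 holds for CPM and not for TPM. The log2 difference against contralateral was −0.77 ± 0.25 with the library and −0.18 without it. At day 1 the injured libraries held 32.1, 31.9 and 28.7 CPM and the contralateral ones 37.1, 37.9 and 35.4 CPM.

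The 7 genes thus fell into 2 groups by their own values. C1qtnf1, C1qtnf2, C1qtnf3, C1qtnf5 and C1qtnf6 lay above every library of the control in both day 7 comparisons, and on the CPM scale C1qtnf7 and C1qtnf12 overlapped it. Over all genes, 17.4% lay wholly above the naïve libraries and 18.6% wholly above the day 7 contralateral ones. Since these are the values with which the genes were chosen, nothing is read from the count. The median log2 difference over the 7 was 2.39 against naïve, where the median of all tested genes was −0.04, and 2.36 against contralateral, where it was −0.05. Against contralateral without the library that stood apart, the log2 difference was 2.33 for C1qtnf1, 2.52 for both C1qtnf5 and C1qtnf6, and 0.41 for C1qtnf7. By log2 fold change against naïve, highest first, C1qtnf2 ranked 85, C1qtnf6 94, C1qtnf1 157, C1qtnf5 221, C1qtnf7 5502 and C1qtnf12 12664 of 21129.

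**Figure D3:**
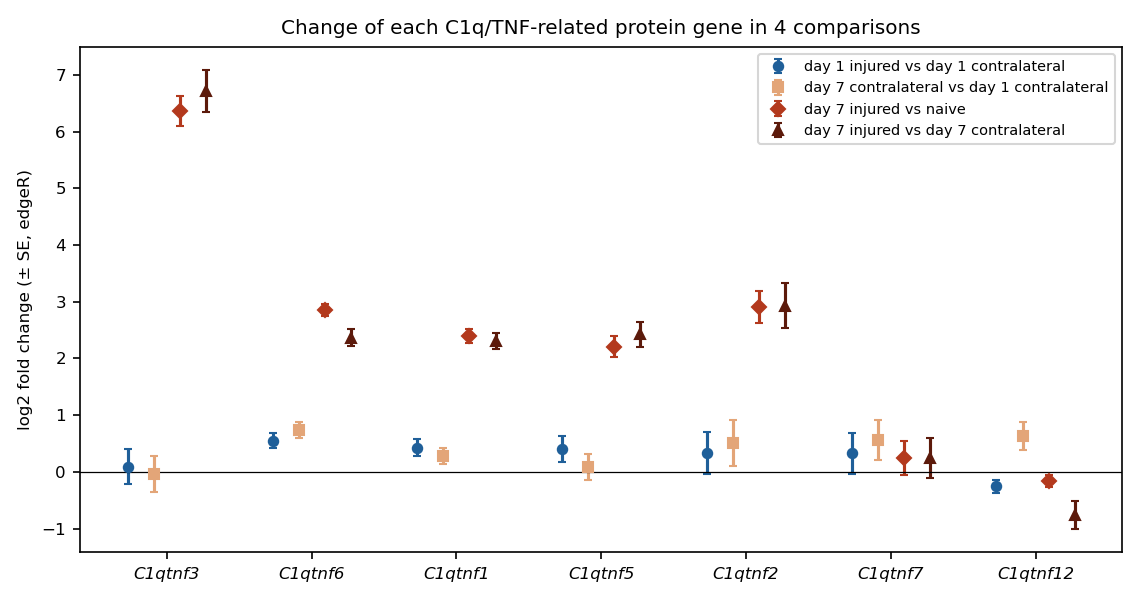
Log2 fold change ± SE from edgeR of each C1q/TNF-related protein gene in 4 comparisons (n = 3 against 3, or 3 against 6 naïve). The 2 day 7 injured comparisons lie at 2.21 to 6.72 for C1qtnf1, C1qtnf2, C1qtnf3, C1qtnf5 and C1qtnf6 and are a description of the values that chose the genes, while the day 1 and the contralateral comparisons lie between −0.25 and 0.74 for all 7.

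Levels of different genes can be set side by side per length, as TPM. In naïve cartilage C1qtnf12 led with a mean of 17.8 TPM, followed by C1qtnf1 at 6.02, C1qtnf6 at 5.24, C1qtnf5 at 2.23, C1qtnf3 at 2.17, C1qtnf2 at 1.07 and C1qtnf7 at 0.793. C1qtnf12 lay clear of C1qtnf1, and C1qtnf6 clear of C1qtnf5, while every other pair of neighbours in this order overlapped between libraries. In the day 7 injured knee C1qtnf3 moved to the top with 144 TPM (101 to 196). It was followed by C1qtnf6 at 28.8, C1qtnf1 at 25.0, C1qtnf12 at 12.5, C1qtnf5 at 8.13, C1qtnf2 at 6.15 and C1qtnf7 at 0.687 TPM. There C1qtnf6 overlapped C1qtnf1, and C1qtnf5 overlapped C1qtnf2, and the other neighbours were apart. C1qtnf3 and C1qtnf5 changed places between TPM and CPM per kilobase in both contralateral groups, where their ranges overlapped.

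**Figure D4:**
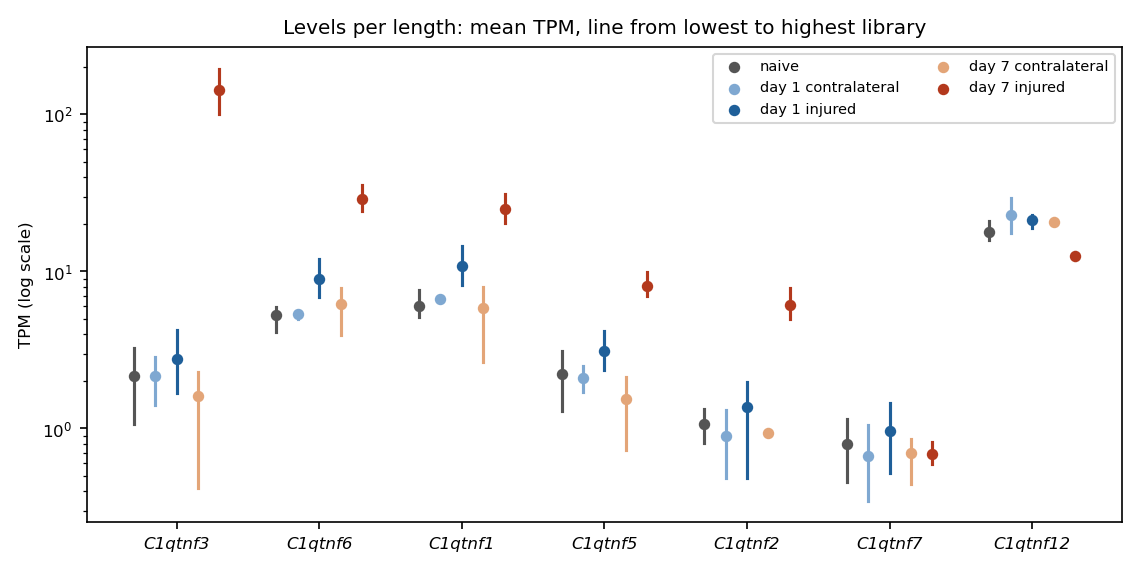
Mean TPM (log axis) of each gene in the 5 groups, with a line from the lowest to the highest library (n = 6 naïve, 3 in every other group). C1qtnf3 passes from 2.17 TPM in naïve to 144 TPM in day 7 injured knees, above C1qtnf12, which leads the other groups.

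The 2 comparisons that did not enter the choice of genes were tested. Between injured and contralateral knees at day 1 none of the 7 genes was called at an edgeR FDR of at most 0.05 and at least 1.5-fold, and 3 had an unadjusted p under 0.05. None of the 21129 genes tested was, which is 0% higher and 0% lower, although 1383 had an unadjusted edgeR p under 0.05, and DESeq2 and limma-voom called none either. For C1qtnf3 the log2 difference was 0.09 with a 95% interval from −0.56 to 0.74 (edgeR FDR 0.968). That interval leaves out a change of the size seen at day 7. C1qtnf6 was 0.55 higher, from 0.27 to 0.83 (edgeR FDR 0.755), and C1qtnf1 0.42 higher, from 0.11 to 0.74 (FDR 0.755). C1qtnf12 was at −0.25, from −0.50 to −0.01 (FDR 0.755).

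Without overlap between the day 1 groups, C1qtnf1 and C1qtnf6 lay higher in the injured knees and C1qtnf12 lower by CPM, beside 5.09% of all genes wholly higher and 6.07% wholly lower. By TPM the day 1 groups of C1qtnf12 overlapped, at 18.9 to 22.8 in injured and 17.6 to 29.3 in contralateral knees. These differences fail the correction over all genes. C1qtnf2 (0.34, from −0.45 to 1.12), C1qtnf5 (0.40, from −0.08 to 0.88) and C1qtnf7 (0.33, from −0.44 to 1.09) overlapped between the groups.

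Between contralateral knees of day 7 and of day 1 none of the 7 was called by edgeR and 2 had an unadjusted p under 0.05, where 0.0141% of all genes were called higher and 0.0047% lower and 2638 had an unadjusted p under 0.05. The few genes called were Ckb, Bambi and C77080, higher, and Gm14567, lower. C1qtnf6 had the largest difference among the members by this test, at 0.74 with a 95% interval from 0.44 to 1.05 (edgeR FDR 0.129). Its 3 day 7 libraries all lay above the 3 day 1 libraries, as did those of C1qtnf1 (0.27, from −0.02 to 0.57), beside 7.37% of all genes wholly higher. This separation was of the CPM scale, since by TPM the library that stood apart held the lowest value of the 6 for both genes, 3.92 for C1qtnf6 and 2.66 for C1qtnf1. DESeq2 called C1qtnf6 at a log2 difference of 0.76 (FDR 0.00247), and limma-voom did not (FDR 0.201). C1qtnf3 differed by −0.04, from −0.70 to 0.63 (edgeR FDR 0.971). C1qtnf12 differed by 0.63, from 0.11 to 1.15 (edgeR FDR 0.350), which became 0.06 without the library that stood apart.

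Other genes with a C1q domain were listed alongside, from the complement C1q chains to the network collagens, the cerebellins and the C1q-like proteins. Of the 24 listed, 18 passed the filter. Against naïve 5 of the 18 rose in the day 7 injured knee and none fell, and the same 5 rose against contralateral. All of these calls were kept in each of the 15 and 12 alternative settings, which left the thresholds as they were. At an FDR of 0.01 the call of Erfe against contralateral was lost (edgeR FDR 0.0105). Of all genes tested, 10.4% were called higher and 6.11% lower against naïve, and 9.33% and 3.23% against contralateral. The median log2 difference of the 18 was 0.18 against naïve and 0.06 against contralateral. None was called by edgeR at day 1, where 1 had an unadjusted p under 0.05 and no other tool made a call, or between the contralateral knees, where 4 had such a p and DESeq2 called 1 and limma-voom none. The list, like the others here, was written with earlier results of these data known.

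Col8a1 and Col8a2, the chains of the short-chain network collagen VIII, and C1ql3, a secreted C1q-like protein known from synapses, were the ones that rose most. Col8a2 held 131, 104 and 132 CPM in the day 7 injured libraries and 15.2 to 26.3 CPM in the naïve ones (log2 2.78 ± 0.17, SE; edgeR FDR 2.5e-08). Against the day 7 contralateral libraries, at 46.1, 12.0 and 14.9 CPM, it was 2.36 ± 0.37 higher (edgeR FDR 0.000208). Its highest contralateral value came from the library that stood apart, without which the difference was 3.21 ± 0.26 (edgeR FDR 6.5e-07). Col8a1 held 155, 167 and 204 CPM, against 26.4 to 55.1 CPM in naïve and 42.0, 37.4 and 37.4 CPM in contralateral libraries. It was 2.38 ± 0.24 (edgeR FDR 3.1e-06) and 2.17 ± 0.28 (FDR 3.2e-05) higher. C1ql3 was 2.24 ± 0.25 (edgeR FDR 7.8e-06) and 2.06 ± 0.32 (FDR 0.000167) higher, but from a level near the limit of these libraries, 0.249 to 0.729 CPM in naïve and 2.17 to 2.85 CPM in day 7 injured ones.

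Emilin1, a glycoprotein of elastic fibres, rose by 1.19 ± 0.17 (log2, SE; edgeR FDR 7.8e-05) against naïve, from 64.1 to 120 CPM up to 204, 187 and 210 CPM, and by 0.99 ± 0.20 (FDR 0.00220) against contralateral. Erfe, the iron hormone erythroferrone and itself a member of the CTRP family, rose by 1.06 ± 0.25 (edgeR FDR 0.00520) and 1.13 ± 0.29 (FDR 0.0105), to 4.09, 5.39 and 5.32 CPM. The other CTRP genes on the list, C1qtnf4 (−0.26 ± 0.41 against naïve) and C1qtnf9 (0.04 ± 0.41), were not called in either comparison. Adipoq, the gene of adiponectin, was at −0.75 ± 0.35 against naïve (edgeR FDR 0.123) and was not called. Of the complement chains, C1qb was 0.58 ± 0.14 higher against naïve (edgeR FDR 0.00718), just under 1.5-fold, with 0.09 ± 0.22 against contralateral, and C1qa and C1qc were not called. C1ql1, C1ql2, C1ql4, Cbln2, Cbln4 and Otol1 were under the filter, and Cbln4 was listed at 0 in all 18 libraries.

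Among 9 receptors and signal partners of adiponectin and its relatives, all of which passed the filter, 1 was called higher in both day 7 comparisons, a share near the 10.4% and 9.33% of all genes called higher. Cdh13, the cell surface cadherin that binds adiponectin, held 50.4, 54.6 and 69.8 CPM in the day 7 injured libraries, against 18.7 to 36.4 CPM in naïve and 16.7, 22.5 and 25.0 CPM in contralateral ones. It was 1.09 ± 0.20 (log2, SE; edgeR FDR 0.000821) and 1.44 ± 0.25 (FDR 0.000467) higher. The adiponectin receptors Adipor1 (−0.17 ± 0.08) and Adipor2 (−0.10 ± 0.08) did not pass the test against naïve. In the day 1 and the contralateral comparison edgeR, DESeq2 and limma-voom called none of the 9, and none had an unadjusted edgeR p under 0.05. The median of the 9 was −0.10 against naïve and −0.08 against contralateral.

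Some of the lists of tissue markers were also higher in the day 7 injured knee, while others were lower or were not called. The counts of each list stand beside 10.4% of all genes called higher and 6.11% lower against naïve, and 9.33% and 3.23% against contralateral. All 6 tendon and ligament markers rose, and their sum, led by Fmod, was 1716, 1818 and 2280 CPM in the day 7 injured libraries, against 349 to 808 CPM (median 530) in naïve and 340, 323 and 404 CPM in contralateral ones. Fmod, which naïve cartilage also held, made up 56.6% to 60.6% of the sum in the day 7 injured libraries and 39.5% to 63.3% in the naïve ones. Of 9 synovial fibroblast markers 5 were called higher against naïve and 6 against contralateral, and none was called lower. The log2 difference was above 0 for 7 of the 9 against naïve. Against contralateral it was above 0 for 6, so those not called there were not above 0. The sum of the 9, led by Col14a1, was 1333, 1561 and 1638 CPM, against 391 to 601 CPM (median 439) and 464, 437 and 445 CPM. Col14a1 made up 44.1%, 44.3% and 45.7% of the sum in the day 7 injured libraries. It made up 16.1% to 20.5% in the naïve ones and 17.5%, 14.2% and 16.8% in the day 7 contralateral ones. No marker of any list was at 0 in any library. Thy1 and Dpt of fibroblasts rose by 1.91 ± 0.16 and 2.35 ± 0.28 against naïve (log2, SE), and Scx and Tnmd of tendon by 2.94 ± 0.23 and 3.68 ± 0.37. All the tendon and ligament calls, and all the fibroblast calls but that of Pdpn against contralateral, were kept in every alternative setting. That of Pdpn was lost in 6 of 12, in each of which 1 of the 6 day 7 libraries was left out. The part of these cell types in the values of C1qtnf1, C1qtnf2, C1qtnf3, C1qtnf5 and C1qtnf6 was not tested.

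The chondrocyte sum was 7916, 8963 and 8717 CPM in the day 7 injured libraries, 4650 to 8434 CPM (median 5380) in the naïve ones, and 15184, 5031 and 5891 CPM in the contralateral ones. Acan, Col11a1, Comp and Sox9 of the 12 markers were called higher against naïve and none was called lower. There 10 of the 12 lay above 0, with a median log2 difference of 0.28, beside −0.04 over all genes tested. Against contralateral 5 were called higher, these and Hapln1, and none lower. In that comparison 6 of the 12 lay above 0, with a median of −0.12, beside −0.05 over all genes tested. Of 12 alternatives, the call of Col11a1 was lost in 8, among them without day 7 contralateral replicate 2 or 3 and without day 7 injured replicate 2 or 3. That of Hapln1 was lost in 4, among them without day 7 contralateral replicate 1 and without day 7 injured replicate 2 or 3, and that of Comp in 1, without day 7 contralateral replicate 2. Of the endothelial markers, led by Vwf, 3 of 6 rose in both comparisons, and the sum was 564, 570 and 635 CPM against 458 to 544 CPM in naïve libraries. Vwf itself was lower, at −0.37 ± 0.12 against naïve (log2, SE; edgeR FDR 0.0271) and −0.37 ± 0.14 against contralateral (FDR 0.0823), under the 1.5-fold limit in both. Against contralateral the calls of Cdh5 and Emcn were lost without day 7 injured replicate 3 and on the 2 groups alone, and that of Pecam1 was kept.

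Adipocyte markers were lower. Of the 7, led by Cfd, 5 fell against naïve and 7 against contralateral, and their sum was 196, 209 and 149 CPM in the day 7 injured libraries, against 223 to 755 CPM (median 430) in naïve ones. All 5 and all 7 of these calls were lost without day 7 injured replicate 3, and limma-voom called 1 and 2. Against contralateral those of Plin1, Cidec, Lep, Pnpla2 and Lipe were also lost without day 7 contralateral replicate 1. Of 7 erythroid markers, led by Hbb-bs, 4 fell in both comparisons, with a sum of 27502, 23390 and 16677 CPM against 30796 to 41287 CPM in naïve and 64543, 29229 and 31321 CPM in contralateral libraries. The 4 erythroid calls against contralateral were lost without day 7 contralateral replicate 1, as they were without day 7 injured replicate 3, which also ended 3 of the 4 against naïve. None of 8 skeletal muscle markers, led by Myh4, was called by edgeR. Yet 0 of the 8 lay above 0 against naïve, with a median log2 difference of −0.76, and 1 against contralateral, with a median of −0.15. Their sum was 4706, 2258 and 4051 CPM in the day 7 injured libraries, against 2957 to 9944 CPM in naïve and 3868, 4124 and 4785 CPM in contralateral ones. Against naïve 2 of them had an unadjusted p under 0.05 and DESeq2 and limma-voom each called 1. Of 8 macrophage markers, led by Lyz2, Cd163 alone fell, against contralateral, a call lost without the library that stood apart. Of 8 osteoblast and osteocyte markers, led by Ibsp, 1 rose (Ibsp) and 2 fell (Mepe and Sost) against naïve, with the call of Mepe lost in 3 of 15 alternatives, among them without naïve replicate 3 and without day 7 injured replicate 1. Against contralateral Sost alone fell, a call lost on the 2 groups alone. Of 6 hypertrophic chondrocyte markers, led by Col10a1, Mmp13 and Panx3 rose against naïve. The Panx3 call was lost in 7 of 15 alternatives, without each naïve replicate but replicate 3 and without day 7 injured replicate 2 or 3. None was called against contralateral by any of the 3 tools or had an unadjusted edgeR p under 0.05.

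**Figure D5:**
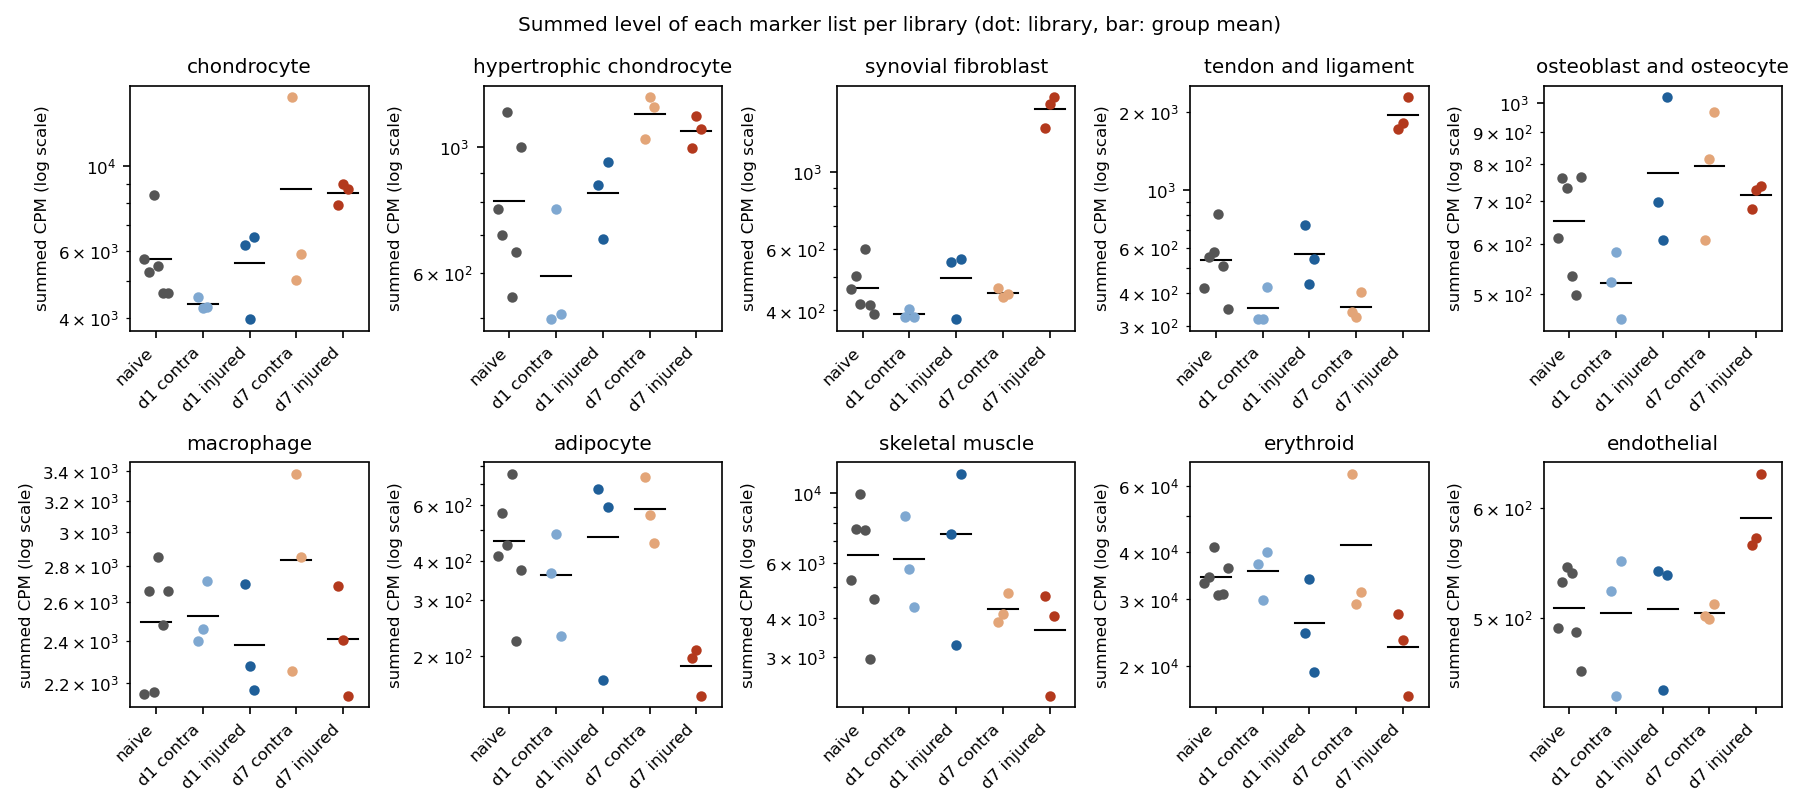
Summed CPM (log axis) of each list of cell type markers in the 18 libraries, with a dot per library and a bar for the group mean. The tendon and ligament sum of 1716 to 2280 CPM and the synovial fibroblast sum of 1333 to 1638 CPM in the day 7 injured group lie above all other libraries, and day 7 contralateral replicate 1 is the highest in the chondrocyte and erythroid panels.

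The genes whose pattern was most like that of each member were found by Pearson's r of log2(CPM + 1) over the 18 libraries, given as a description. All points share the same 18 libraries, with their depth and scaling, among them the 3 day 7 injured ones and the library that stood apart. For C1qtnf3 these were Matn2 (r = 0.988), Capn6 (0.987), Rtl3 (0.986), Slc5a7 (0.985), which was listed at 0 in naïve libraries, and Zfp354c (0.984). By ranks the likeness was lower, with Spearman's rho of 0.67, 0.68, 0.88, 0.58 and 0.76 in that order. Slc5a7 held a mean of only 1.05 CPM in the day 7 injured libraries. Matn2, a matrilin of the filamentous matrix, went from a mean of 22.0 to 175 CPM between naïve and day 7 injured knees. Over the 15 libraries that are not day 7 injured, none of these returned. Among the nearest genes were then Rnf152 (r = 0.890), Mir133a-1hg (0.873), Cnmd, the gene of chondromodulin (0.863), and D430019H16Rik (0.849).

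For the other members the 3 nearest genes are given. C1qtnf1 was most like Mmp2, a gelatinase (r = 0.994), P4ha2, a prolyl hydroxylase of collagen (0.993), and Loxl2, which crosslinks it (0.992). C1qtnf6 was most like Col5a1, a chain of collagen V (0.992), Scarf2 (0.988) and the fibrillin Fbn2 (0.987). C1qtnf5 was most like Col6a2 and Col6a1, chains of collagen VI, and Thbs2 (all 0.985), and C1qtnf2 like Itm2a (0.987), Itgbl1 (0.986) and Dkk3 (0.983). C1qtnf7 was most like Chst5 (0.930), Htra4 (0.901) and the cartilage matrilin Matn3 (0.898). C1qtnf12, whose highest CPM was in the library that stood apart, was most like Rnaseh2c (0.971), Rnaseh2a (0.958) and Mis18a (0.956).

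The likeness among the members rested on the same 3 libraries. Between pairs of C1qtnf1, C1qtnf2, C1qtnf3, C1qtnf5 and C1qtnf6, r ran from 0.927 (C1qtnf2 and C1qtnf6) to 0.977 (C1qtnf1 and C1qtnf6) over the 18 libraries. Over the 15 that are not day 7 injured it ran from −0.32 (C1qtnf3 and C1qtnf6) to 0.66 (C1qtnf1 and C1qtnf5). The pair closest to each other in those 15 libraries was C1qtnf2 and C1qtnf7, at 0.80.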

How the data were processed

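RNA of 18 cartilage libraries was measured with a stranded total RNA kit. The authors trimmed reads with Trimmomatic, ran kallisto on mouse GRCm38 transcripts and deposited estimated counts, TPM and effective lengths per transcript, with no further normalisation. GEO's processing notes list the build GRCh38 with kallisto and DESeq2, and the methods name tximport and limma-voom. The methods also say that 1 ACL library was removed for low mapping, without naming it.

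Of 137436 transcripts, 135107 (98.3%) were matched without version to the GENCODE annotation of GRCm38, which also gave the coordinates. Of these, 130907 carried a version one higher in the deposited files, and 134124 the same length. The 2329 others, 0.667% to 3.90% of the counts of a library, were left out. Estimated counts were summed to 49184 genes and rounded. The lowest chi-square per gene between 2 libraries of a group was 18.4, so none was a duplicate.

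Genes were tested in edgeR 4.0.16 under R 4.3.3 by its quasi-likelihood test on group means after TMM and edgeR's filter, on 18 libraries, or on 15 where the day 7 contralateral group was not compared. A gene was called at a Benjamini-Hochberg FDR of at most 0.05 and at least 1.5-fold. P-values were adjusted over all genes tested. The script was tested on simulated data. Alternatives were RLE size factors, no filter, DESeq2 1.42.0, limma-voom (limma 3.58.1), a transcript length offset, other sets of libraries, each library left out and other thresholds. The 15 and 12 alternatives counted for a call leave out the other thresholds. Intervals are 95%. The members and all lists were chosen with earlier results of these data known. The text names all 7 members, the called related genes, the genes most like each member (5 for C1qtnf3, of which 1 is not reported here, 3 for the others), overlapping and nearest genes, and the most abundant gene of each marker list. Other called markers, the uncalled related genes and the genes called between contralateral knees were named after their values were seen.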

Additional observations from a re-analysis of the deposited data

Results flagged for a closer look

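In 18 checks of the naïve group, the only one of over 3 libraries, for a value far from the rest, of which chance alone would mark about 1 in 20, the chondrocyte marker sum was the 1 so marked. Naïve replicate 3 held 8434 CPM, and its gap to the nearest library made up 0.717 of the range of the group. C1qtnf3 stood at 12.3 CPM in that library, the highest of the naïve group, and its day 7 log2 difference was 6.49 without it against 6.37 with it.

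The injury effect on Col8a1 differed between the days. The difference of injured and contralateral knees at day 7 minus that at day 1 was 1.82 ± 0.39 (log2, SE), with an edgeR FDR of 0.0111. Col8a1 was the only 1 of 27 related genes tested that passed, a share near that of all genes, where 802 of 21262 did. All 18 libraries entered the test, among them the one that stood apart. This test was added after the data were seen.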

How the results depend on the processing

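The log2 difference of C1qtnf3 at day 7 kept its direction and size, from 6.19 to 6.49 against naïve over 15 alternatives and from 6.53 to 6.85 against contralateral over 12. No paired analysis was possible because the labels do not say which pools share mice and the replicate numbers only follow the order of deposit.

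Where the counts of genes called moved by over 1.5 times, the cause was not tested. For day 7 against day 1 contralateral knees, with 3 higher and 1 lower, the counts were 1 and 0 without the filter, 70 and 10 by DESeq2, 0 and 0 by limma-voom, with the length offset, on the 2 groups alone and at an FDR of 0.01, and 0 to 0 with each library left out. Against naïve, the 1291 genes lower became 472 at an FDR of 0.01 and 797 to 1425 with a library left out, the lowest without day 7 injured replicate 3, and without a fold limit there were 3960 higher and 2331 lower. Without a fold limit, 10 related genes were higher and 2 lower, and 0 to 1 were lower with a library left out, 1 without naïve replicate 5. Against contralateral, the 686 genes lower became 452 by limma-voom, 279 on the 2 groups alone, 251 at an FDR of 0.01 and 1310 without a fold limit. They ran from 279 without day 7 injured replicate 3 to 1058 without day 7 contralateral replicate 3, with 434 without day 7 contralateral replicate 1. The share of C1qtnf3-202 at day 7 was 24.7% by TPM. C1qtnf3 between contralateral knees turned from −0.04 to 0.011 by limma-voom, and ran from −0.20 to 0.14 with a library left out. Likewise C1qtnf5 there ran from −0.10 to 0.32, and at day 1 C1qtnf2 ran from −0.13 to 0.74 and C1qtnf3 from −0.15 to 0.32. C1qtnf6 between contralateral knees was called by DESeq2 alone (0.76).

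Limits remain. With 3 pools a group, differences of the size seen at day 1 did not pass the correction over all genes. C1qtnf2, C1qtnf5 and C1qtnf7 had low levels outside the day 7 injured knee. The C1qtnf3 transcript shares there, steady in naïve libraries and uneven in the others, rest on few counts. Pool size, tissue naming and genome build differ between the sources.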
